A study of Mus musculus with 16 samples.

Results

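The genes described here are 35 mouse genes of the tricarboxylic acid (TCA) cycle and of the steps by which pyruvate, glutamate and aspartate enter it. They are listed by name and role, but the list was drawn up with earlier results of these data known, so counts over it are descriptions: 20 encode TCA cycle enzymes, 4 encode parts of the pyruvate dehydrogenase complex, 5 its kinases and phosphatase, 3 pyruvate carboxylase and the mitochondrial pyruvate carrier, and 3 the enzymes that exchange glutamate or aspartate with the cycle. A gene was followed through the array feature (a probe set) that carries its name alone and, where there were several, through the feature with the highest mean over the 16 arrays. Of the 35 genes, 34 had such a feature, out of 22180 genes in all, and 33 lay above the filter on dim genes, out of 15526. Mpc2, a pyruvate carrier subunit, was not analysed here, and Pdk4, a pyruvate dehydrogenase kinase, was too dim to be tested.

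The study treated bone marrow-derived macrophages with dimethyl α-ketoglutarate (αKG, 1 mM), an ester of a TCA cycle intermediate, while they formed osteoclasts, the cells that resorb bone. The cells came from tibias and femurs of male C57BL/6 mice aged 5 weeks and were grown in αMEM with fetal bovine serum and added L-glutamine. All groups received macrophage colony-stimulating factor (M-CSF). The αKG groups with the osteoclast cytokine RANKL were sampled as a first pair (0.5 and 1 h) and then as pairs of 3 with 6 h, 12 with 24 h and 48 with 72 h. The groups with RANKL and DW, the control as labelled, were sampled in those last 3 pairs, and both arrays at 0 h had DW without RANKL. That made 8 groups of 2 arrays, and apart from 0 h each condition and time was a single array. The labels do not tie arrays to separate cultures or mice. A p-value here therefore reflects only how far these arrays differ. In comparisons with 0 h, that spread includes the time between the arrays of a pair. The other comparisons take time as a block, so their spread is how the difference between αKG and DW varies from time to time. In comparisons with 0 h, the effects of RANKL and of time in culture cannot be told apart. For the αKG groups, the effect of αKG cannot be told apart from these either.

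The TCA cycle oxidises acetyl groups to carbon dioxide in the mitochondrial matrix and passes their electrons to the respiratory chain. The pyruvate dehydrogenase complex makes acetyl-CoA from pyruvate, and its kinases switch it off by phosphorylation while its phosphatases switch it on. αKG is both an intermediate of the cycle and a product of glutamate, and osteoclasts, which are rich in mitochondria, need much ATP to resorb bone.

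Values are log2 expression levels as deposited. Over all features they ran from 0.61 to 13.25, array medians lay between 4.84 and 4.93, and levels of different genes are not set against each other. The mean correlation of an array with the other arrays was lowest for DW at 72 h (0.929) and lay between 0.960 and 0.975 for the others. The SD of the difference between the 2 arrays at 0 h was 0.196 over all genes tested and 0.102 over the 33 members. The summed linear level of 8 macrophage markers was 19618 to 23214 with late αKG, 16598 to 22332 with late DW and 22993 to 23299 at 0 h. These markers were thus read in each of these groups. The sum follows its brightest genes, Lyz2 and Cd68, and does not show how single markers changed: Fcgr1 fell from 0 h by 1.80 in late DW and 1.11 with late αKG. "Late" means 48 and 72 h throughout, and a gene is called when its adjusted p is at most 0.05 (limma, Benjamini-Hochberg over the 15526 genes).

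The first question was how RANKL changed these genes with DW. In late DW arrays 10 of the 33 members were higher than at 0 h and 0 were lower, where 3.34% of all genes were called higher and 3.3% lower (6.64% called). The members' median difference was 0.48, against -0.0008 over all genes, and 19 members had an unadjusted p under 0.05. The 10 genes were Pdha1, Pdhb and Dlat of the pyruvate dehydrogenase complex, Cs, Idh3g, Dlst and Dld of the cycle's first steps, and the succinate dehydrogenase genes Sdhb, Sdhc and Sdhd. Both late DW arrays lay above both 0 h arrays in 26 of the 33 members (25.1% of all genes); the other 7 were Idh1, Idh2, Pdk3, Pdp1, Pcx, Glud1 and Got2. In bulk RNA, a change in the share of a cell type and a change in RNA per cell cannot be told apart. The count of 10 was 2 or 3 without one or the other 0 h array, 17 without DW at 48 h, 4 without DW at 72 h, and 0 in a fit of only these 4 arrays.

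The second question was how αKG changed them at matched times. With late αKG 14 of the 33 members were lower than with DW and 0 were higher, where 2.18% of all genes were called lower and 2.09% higher (4.27% called). The members' median difference was -0.42, against 0.01 over all genes, and 27 members had an unadjusted p under 0.05. The 14 were Pdha1, Pdhb, Dlat, Pdk2, Pdk3, Cs, Idh3a, Idh3g, Sdhb, Sdhd, Fh1, Mdh1, Mdh2 and Got1. Both late αKG arrays lay below both late DW arrays in 23 of 33 members (14.9% of all genes). The count of 14 rested on the time pairs that gave it: it was 2, Pdha1 and Sdhb, without the 72 h pair, 22 without the 48 h pair, and 3 to 8 without one of the earlier pairs, which leaves fewer arrays to estimate the spread. It was 6 without the intensity trend and 0 without time as a block.

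**Figure D1:**
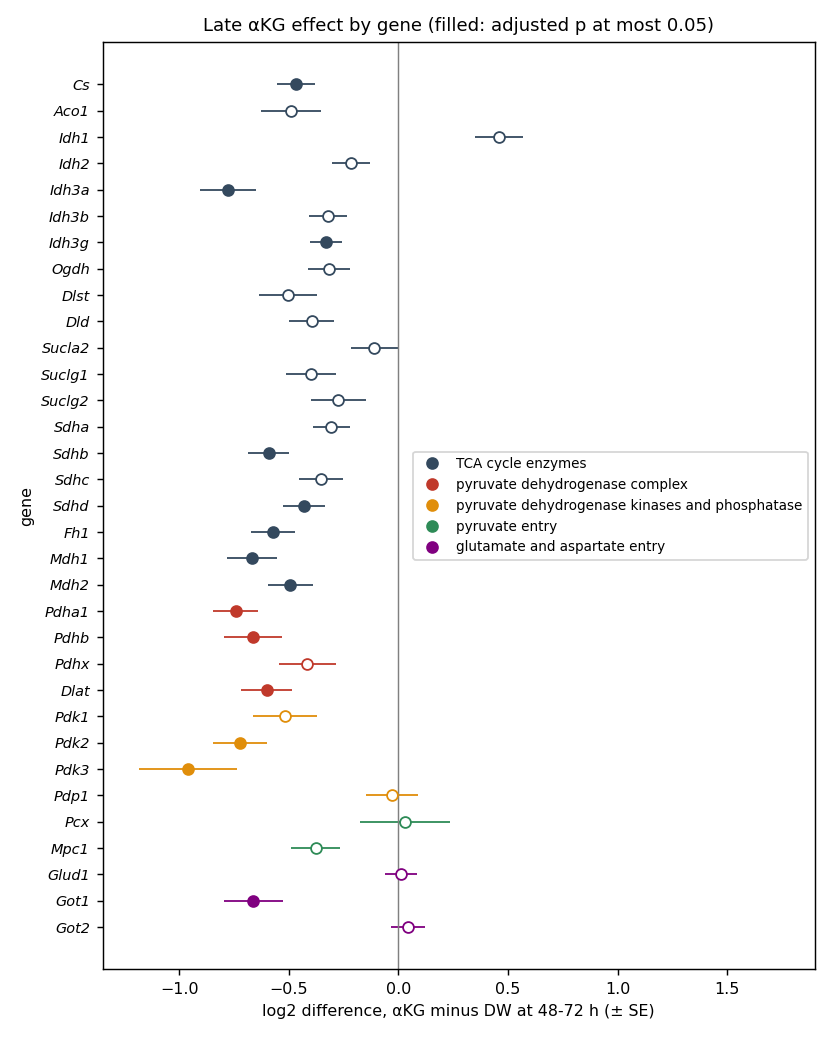
Log2 difference, αKG minus DW, at 48 and 72 h for the 33 members tested, by role; bars are standard errors and filled points are the 14 genes with an adjusted p of at most 0.05. All filled points lie left of 0, and Idh1 lies farthest right at 0.46.

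Late αKG arrays were also set against 0 h. In that comparison, 0 of 33 members were called with late αKG (1.43% of all genes), 4 had an unadjusted p under 0.05 (limma), and the median difference was 0.08; both late αKG arrays lay above both 0 h arrays in 11 members (22.6% of all genes). This comparison and that of late DW share the 0 h arrays. Pdhb stood at 0.49 ± 0.17 (SE) above 0 h with late αKG and at 1.15 ± 0.17 with late DW, Sdhd at 0.49 ± 0.18 and 0.92 ± 0.18, and Pdha1 at 0.06 ± 0.12 and 0.80 ± 0.12.

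Because many members moved together late, their promoters were searched for 5 motifs on both strands. RefSeq windows (GRCm38.p6, 250 bases before to 50 after a start) were found for 32 of the 35 members. The core of the oestrogen-related receptor element, AAGGTCA, was in 3 members (Got1, Ogdh and Sdhd), 9.38% against 5.38% of 27025 genes, and its extended form TNAAGGTCA, which contains the core, in Sdhd only (3.12% against 1.43%). The NRF1 element, GCGC and TGCGC with any 1 base between them, was in 4 (Dld, Sdha, Sdhd and Sucla2; 12.5% against 5.19%). The antioxidant response element core TGACNNNGC was in 6 (Dlst, Idh3g, Mdh1, Mpc1, Pdhb and Sucla2; 18.8% against 14%), and the cyclic AMP response element TGACGTCA in 2 (Mdh2 and Ogdh; 6.25% against 2.03%). Of the 13 members called lower with late αKG that had a window, 2 held the receptor core and 1 the NRF1 element. The antioxidant core was in 3 of the 13 and the cyclic AMP element in 1. These matches are descriptions of letters in these windows and show no binding.

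The stretches of 4 genes that were lower with late αKG are shown, each with a motif in capitals; each runs 5′ to 3′ on the gene's strand and ends at most 30 bases past the start. They belong to Got1, the cytosolic aspartate aminotransferase, chr19:43524784-43524855 on the minus strand, with the receptor core; Sdhd, an anchor of succinate dehydrogenase, chr9:50603859-50603988 on the minus strand, with the NRF1 element on the other strand; Pdhb, a pyruvate dehydrogenase subunit, chr14:8172963-8173060 on the minus strand, with the antioxidant core on the other strand; and Mdh2, the mitochondrial malate dehydrogenase, chr5:135778462-135778589 on the plus strand, with the cyclic AMP element.
Got1: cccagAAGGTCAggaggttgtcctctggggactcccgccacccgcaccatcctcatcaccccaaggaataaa
Sdhd: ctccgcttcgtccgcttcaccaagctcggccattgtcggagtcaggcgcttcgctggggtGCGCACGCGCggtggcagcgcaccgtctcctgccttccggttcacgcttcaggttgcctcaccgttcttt
Pdhb: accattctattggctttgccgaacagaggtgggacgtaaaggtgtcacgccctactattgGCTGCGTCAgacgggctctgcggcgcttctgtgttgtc
Mdh2: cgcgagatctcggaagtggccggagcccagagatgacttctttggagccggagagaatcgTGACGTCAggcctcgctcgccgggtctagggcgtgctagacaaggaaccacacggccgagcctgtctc

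The pyruvate dehydrogenase complex held the members with the smallest p in late DW. Pdha1, the α subunit of its decarboxylase, read 8.50 and 8.46 with αKG at 48 and 72 h, 9.14 and 9.31 with DW at those times and 8.33 and 8.52 at 0 h, and lay between 8.14 and 8.48 in the 10 other arrays. Both late DW arrays stood above all 14 others, and the late αKG arrays lay within the range of 0 h. It rose by 0.80 ± 0.12 in late DW over 0 h (adjusted p = 0.00364, limma) and fell by 40.2% with late αKG over DW (-0.74 ± 0.10, adjusted p = 0.00705).

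Pdhb, the β subunit of the same enzyme, read 9.05 and 9.18 with late αKG, 9.57 and 9.98 with late DW and 8.61 and 8.64 at 0 h, against 8.52 to 8.95 elsewhere. Dlat, the acetyltransferase core, read 7.82 and 7.70 with late αKG, 8.25 and 8.47 with late DW and 7.53 and 7.52 at 0 h, against 7.40 to 7.65 elsewhere. For both genes the late αKG arrays lay between the late DW arrays and all the rest. Pdhb rose 2.22-fold in late DW (1.15 ± 0.17, adjusted p = 0.00259) and fell by 36.8% with late αKG (-0.66 ± 0.13, adjusted p = 0.0282). Dlat rose 1.79-fold in late DW (0.84 ± 0.14, adjusted p = 0.00474) and stood at -0.60 ± 0.12 with late αKG (adjusted p = 0.025). Pdhx, which binds Dld to the complex, passed neither test, at 0.47 ± 0.22 and -0.42 ± 0.13.

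Among the kinases that switch the complex off, Pdk3 read 6.61 and 6.86 with late αKG, 7.00 and 8.39 with late DW and 7.08 and 7.00 at 0 h, against 6.20 to 7.12 elsewhere. The single DW array at 72 h stood above all others. Its difference with late αKG, -0.96 ± 0.22 (adjusted p = 0.0489), was the lowest of the members, and was -0.39 (adjusted p = 0.367) without the 72 h pair. Pdk2 read 5.90 and 7.28 with late αKG, 6.46 and 8.16 with late DW and 6.04 and 6.42 at 0 h, against 5.89 to 7.32 elsewhere. It was higher at 72 h than at 48 h in both arms, by 1.38 with αKG and 1.71 with DW, so the late groups overlapped, but αKG lay below DW at each time (-0.72 ± 0.12, adjusted p = 0.0153). In late DW over 0 h its difference of 1.08 ± 0.60 did not pass (adjusted p = 0.341).

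Pdk1 stood at 0.62 ± 0.33 in late DW and at -0.52 ± 0.15 with late αKG (adjusted p = 0.0878), and passed neither test. Pdk4 lay between 3.89 and 4.52 in all 16 arrays and was not tested. The phosphatase gene Pdp1, which reactivates the complex, read 6.34 and 6.38 with late αKG, 6.38 and 6.39 with late DW and 6.84 and 6.82 at 0 h. Its arrays at 3 h and later all lay below 0 h in both arms, but the difference missed the threshold in late DW (-0.44 ± 0.12, adjusted p = 0.0564) and at 12 to 24 h with DW (-0.58 ± 0.12, adjusted p = 0.064). With the lowest 50% of genes left out, it was called lower in both. αKG over DW was -0.03 ± 0.12 late.

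At the entry of acetyl-CoA, Cs, citrate synthase, read 10.50 and 10.27 with late αKG, 10.82 and 10.89 with late DW and 10.22 and 10.29 at 0 h, against 10.18 to 10.40 elsewhere. Both late DW arrays stood above all others, and αKG at 72 h was within the range of 0 h. Cs rose by 0.60 ± 0.10 in late DW (adjusted p = 0.00605) and stood at -0.47 ± 0.09 with late αKG (adjusted p = 0.0196). Aco1, the cytosolic aconitase and iron sensor, passed neither test (0.48 ± 0.21 and -0.49 ± 0.14).

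The NAD-linked isocitrate dehydrogenase, which makes αKG in the cycle, has 3 subunit genes here. Idh3a, its catalytic subunit, read 9.26 and 8.55 with late αKG, 9.79 and 9.58 with late DW and 8.82 and 8.79 at 0 h, against 7.70 to 9.29 elsewhere. The late αKG arrays lay on either side of 0 h and below both late DW arrays. It fell by 41.7% with late αKG (-0.78 ± 0.13, adjusted p = 0.0125), while its late DW difference of 0.88 ± 0.47 did not pass. Idh3g, a regulatory subunit, read 10.57 and 10.72 with late αKG, 10.84 and 11.10 with late DW and 10.33 and 10.37 at 0 h, against 10.18 to 10.51 elsewhere. Unlike Idh3a, it had all 4 late arrays above all others; it rose by 0.62 ± 0.13 in late DW (adjusted p = 0.0137) and stood at -0.33 ± 0.07 with late αKG (adjusted p = 0.0401). Idh3b, the other regulatory subunit, passed neither test (0.47 ± 0.16 and -0.32 ± 0.09).

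The NADP-linked enzymes were called in neither comparison. Idh1, the cytosolic enzyme that makes NADPH and αKG, read 9.98 and 10.59 with late αKG, 9.44 and 10.21 with late DW and 9.61 and 9.65 at 0 h, against 9.16 to 10.89 elsewhere. αKG lay above DW at every time from 6 h on and just below it at 3 h. The difference was 0.66 ± 0.11 at 12 to 24 h (adjusted p = 0.0765) and 0.46 ± 0.11 late (adjusted p = 0.0507), and it was 0.40 ± 0.10 over the 6 times (adjusted p = 0.119). None of these 3 passed. Late, it was called higher after quantile normalization, after centring on array medians and with robust moderation; over the 6 times, it was called without the 3 h pair. Idh2, its mitochondrial counterpart, stood at 0.16 ± 0.15 in late DW and at -0.22 ± 0.09 with late αKG and passed neither test.

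The αKG dehydrogenase complex turns αKG into succinyl-CoA. Dlst, its succinyltransferase, read 9.44 and 9.24 with late αKG, 9.67 and 10.01 with late DW and 9.14 and 9.10 at 0 h, against 8.77 to 9.25 elsewhere. Dld, the dehydrogenase shared with the pyruvate complex, read 9.73 and 9.44 with late αKG, 9.96 and 10.00 with late DW and 9.37 and 9.29 at 0 h, against 9.19 to 9.51 elsewhere. In both genes the late DW arrays were the highest and αKG at 72 h had a value that other arrays reached too. They rose in late DW by 0.72 ± 0.17 (Dlst, adjusted p = 0.0316) and 0.65 ± 0.13 (Dld, adjusted p = 0.012). With late αKG the differences of -0.50 ± 0.13 and -0.40 ± 0.10 missed the threshold (adjusted p = 0.0731 and 0.0709). Ogdh, the first enzyme of the complex, passed neither test (0.38 ± 0.16 and -0.32 ± 0.10). The succinyl-CoA ligase genes Sucla2, Suclg1 and Suclg2 did not pass either, with late DW differences of 0.07, 0.47 and 0.29 and late αKG differences of -0.11, -0.40 and -0.27.

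Succinate dehydrogenase is both a cycle enzyme and complex II of the respiratory chain. Sdhb, its iron-sulphur subunit, read 8.67 and 9.07 with late αKG, 9.23 and 9.69 with late DW and 8.46 and 8.62 at 0 h, against 8.47 to 8.87 elsewhere. Sdhd, a membrane anchor, read 9.45 and 9.69 with late αKG, 9.81 and 10.19 with late DW and 8.98 and 9.18 at 0 h, against 8.84 to 9.35 elsewhere. In both, the late DW arrays lay highest, and αKG at 72 h lay above every array outside the late groups. Each rose 1.9-fold in late DW (0.92 ± 0.18, adjusted p = 0.0126 for Sdhb and 0.013 for Sdhd), and they stood at -0.59 ± 0.09 and -0.43 ± 0.10 with late αKG (adjusted p = 0.0112 and 0.0427).

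Sdhc, the other anchor, read 9.22 and 9.29 with late αKG, 9.46 and 9.75 with late DW and 9.06 and 8.97 at 0 h, against 8.74 to 9.32 elsewhere. It rose by 0.59 ± 0.13 in late DW (adjusted p = 0.0222), and its late αKG difference of -0.35 ± 0.10 did not pass. Sdha, the flavoprotein that oxidises succinate, passed neither test (0.56 ± 0.18 and -0.31 ± 0.08).

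The genes of the last steps, from fumarate to oxaloacetate, were called with late αKG over DW. Fh1, fumarate hydratase, read 8.68 and 8.89 with late αKG, 9.17 and 9.54 with late DW and 8.88 and 8.99 at 0 h, against 8.53 to 8.99 elsewhere. Mdh1, the cytosolic malate dehydrogenase of the malate-aspartate shuttle, read 9.04 and 9.54 with late αKG, 9.49 and 10.42 with late DW and 9.06 and 9.03 at 0 h, against 8.61 to 9.12 elsewhere. Mdh2, the mitochondrial enzyme, read 10.81 and 10.72 with late αKG, 11.06 and 11.46 with late DW and 10.79 and 10.80 at 0 h, against 10.32 to 10.73 elsewhere. Fh1 and Mdh2 had both late DW arrays above all others, while for Mdh1 αKG at 72 h lay just above DW at 48 h. The late αKG differences were -0.57 ± 0.10 for Fh1 (adjusted p = 0.0167), -0.67 ± 0.11 for Mdh1 (adjusted p = 0.0149) and -0.49 ± 0.10 for Mdh2 (adjusted p = 0.034). In late DW over 0 h the 3 genes stood at 0.42 ± 0.16, 0.91 ± 0.28 and 0.46 ± 0.15 and did not pass.

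Got1, the cytosolic aspartate aminotransferase, was the only one of the 3 glutamate and aspartate genes called. It read 9.69 and 9.60 with late αKG, 10.23 and 10.39 with late DW and 9.92 and 10.07 at 0 h, against 9.50 to 10.42 elsewhere, where the highest value was αKG at 1 h. Both late αKG arrays lay below 0 h and both late DW arrays above it; the difference between arms was -0.66 ± 0.13 (adjusted p = 0.0298), and late DW over 0 h was 0.31 ± 0.19. Got2, its mitochondrial counterpart, read 10.76 and 10.43 with late αKG, 10.80 and 10.30 with late DW and 10.53 in both arrays at 0 h. Glud1, glutamate dehydrogenase, read 10.52 and 10.43 with late αKG, 10.58 and 10.35 with late DW and 10.51 and 10.46 at 0 h. Late αKG over DW was 0.04 ± 0.08 for Got2 and 0.01 ± 0.07 for Glud1, and late DW over 0 h was 0.02 ± 0.15 and -0.02 ± 0.10.

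The pyruvate entry genes were not called. Pcx, pyruvate carboxylase, which makes oxaloacetate, read 5.27 and 5.58 with late αKG, 5.60 and 5.19 with late DW and 5.30 and 5.39 at 0 h, and αKG over DW at the 6 times was 0.10 ± 0.11, which did not pass. For the carrier subunit gene Mpc1, the feature that the rule takes read 8.996 and 9.21 with late αKG, 9.31 and 9.65 with late DW and 9.16 and 9.24 at 0 h (late αKG over DW -0.38 ± 0.11, adjusted p = 0.104). The features numbered next to it that carry 1 gene all belong to genes of chromosome 12 (19 of 19), while RefSeq puts Mpc1 on chromosome 17. A dimmer Mpc1 feature, whose 20 neighbours are all on chromosome 17, read 6.01 and 6.37 with late αKG, 6.22 and 6.36 with late DW and 6.10 and 6.06 at 0 h, so the value for Mpc1 is uncertain.

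**Figure D2:**
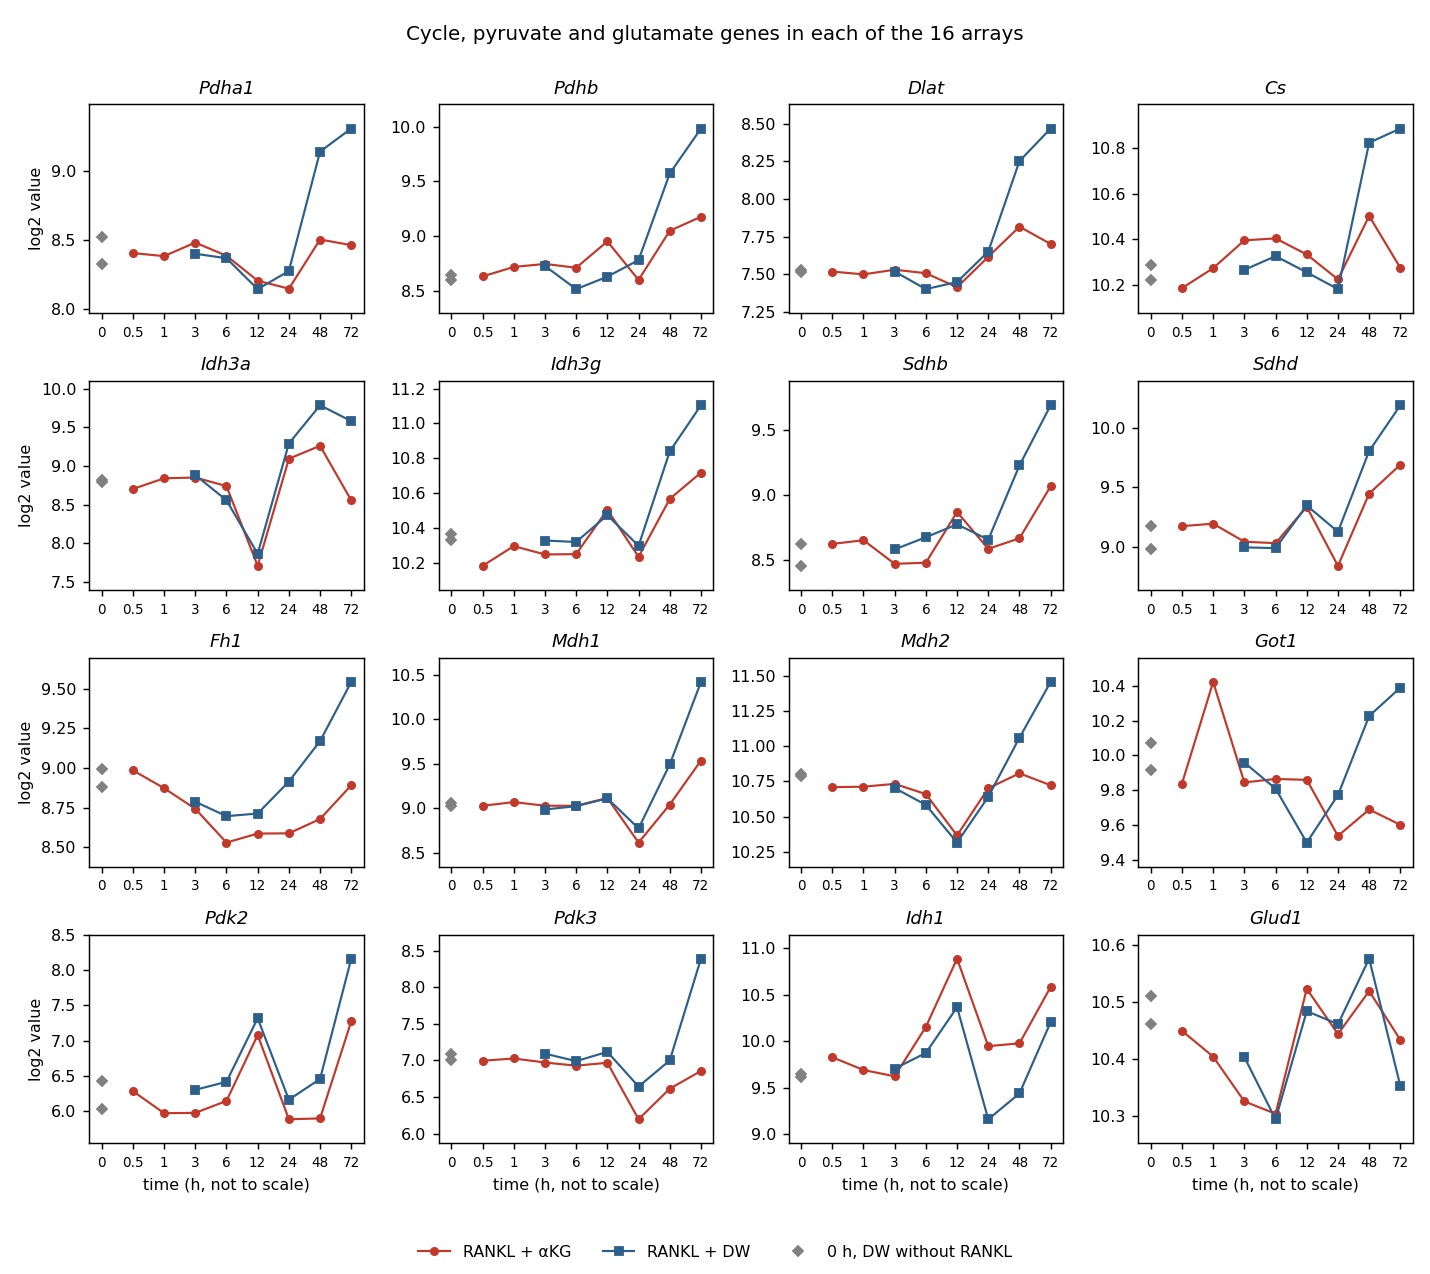
Log2 level of 16 members in each of the 16 arrays against time in h (not to scale), with αKG in red circles, DW in blue squares and the 2 arrays at 0 h as grey diamonds; each panel has its own axis. The arms lie close to each other up to 24 h in most panels and part at 48 and 72 h, where Pdha1 reaches 9.31 with DW and 8.46 with αKG.

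Up to 24 h no comparison of pooled times with 0 h, or of αKG with DW, called a member, although some arrays in that span differed from each other, as given below for 12 h. Against 0 h, 0 of 33 were called with αKG at 0.5 to 1 h (0% of all genes), at 3 to 6 h (0.502%) and at 12 to 24 h (0.67%), and with DW at 3 to 6 h (0.341%) and at 12 to 24 h (0.779%). At an unadjusted p under 0.05 (limma) these comparisons held 0, 1, 3, 1 and 2 members. αKG over DW called 0 members at 3 to 6 h (0.161% of all genes, 1 member at an unadjusted p under 0.05) and 0 at 12 to 24 h (0.0966%, 5 members at an unadjusted p under 0.05).

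Time by time, the median over members of αKG minus DW began at 0.01 (3 h), 0.02 (6 h) and 0.05 (12 h). It was -0.10 at 24 h, then -0.32 (48 h) and -0.56 (72 h). αKG lay below DW in 15, 12, 13, 23, 32 and 29 of the 33 members at these times, where 53.6%, 50.8%, 47.9%, 51.9%, 51.1% and 46.9% of all genes did. Members below DW were thus the majority from 24 h on, and at 48 h only Idh1 had the other sign. At both late times 29 members were below DW (28.8% of all genes). Over all 6 times 0 of 33 members were called (0.399% of all genes; 9 at an unadjusted p under 0.05 by limma), with a median of -0.14.

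Suclg2, Fh1, Pdk2 and Pdk3 were below DW at all 6 times (3.98% of all genes), and 0 members were above DW at all 6 (4.36% of all genes). Their differences over the 6 times were -0.26 ± 0.07 for Suclg2, -0.30 ± 0.08 for Fh1, -0.43 ± 0.09 for Pdk2 and -0.45 ± 0.17 for Pdk3, and none passed (adjusted p = 0.173, 0.175, 0.103 and 0.309). The change of the αKG effect between 3 to 6 h and the late times was tested itself: 0 of 33 members passed (0.605% of all genes), 24 had an unadjusted p under 0.05 (limma), and the median change was -0.42. Pdha1 came closest at -0.79 ± 0.15 (adjusted p = 0.0533). Without the 48 h pair, 15 members passed, all lower.

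**Figure D3:**
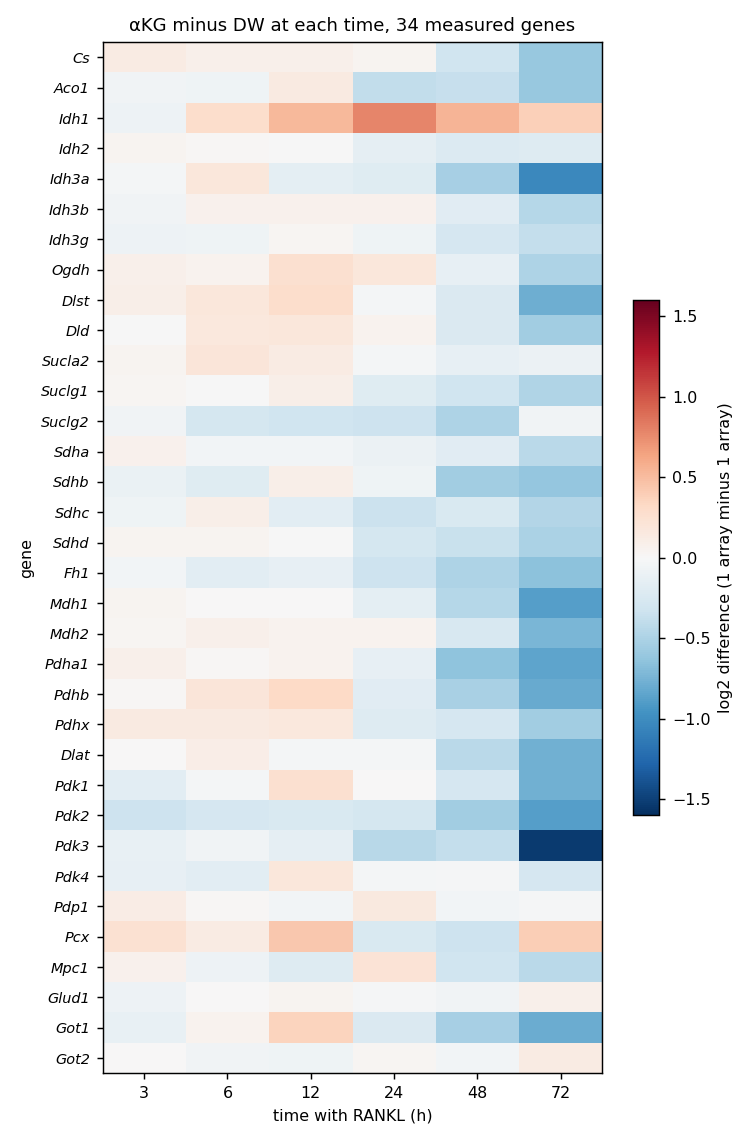
Log2 difference, αKG minus DW, of 1 array minus 1 array at each of the 6 matched times (h) for the 34 measured members, from blue (lower with αKG) to red (higher). Most genes are pale up to 24 h and blue at 48 and 72 h, and Idh1 is red from 6 h on.

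The arrays at 12 h differed from their neighbours in many genes, and members were called no more often than genes in general. In a comparison added after the data were seen, 12 h over the mean of 6 and 24 h in both arms, 2 of 33 members were higher and 1 was lower, where 15.2% of all genes were called, 7.58% higher and 7.58% lower. Pdk2 stood at 1.05 ± 0.14 (adjusted p = 0.00152, limma; 1.06 with αKG and 1.03 with DW) and Idh1 at 0.84 ± 0.14 (adjusted p = 0.00482; 0.84 and 0.85). Idh3a stood at -1.14 ± 0.20 (adjusted p = 0.00576), at -1.21 with αKG and -1.06 with DW. Without the αKG array at 12 h, 1 member was called.

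Other genes around the cycle, taken from lists of adjoining enzymes, carriers, assembly factors and regulators, were tested in the same fits. In late DW over 0 h, where 6.64% of all genes were called, 0 of 25 adjoining enzymes tested, 2 of 9 carriers, 0 of 12 assembly and lipoate factors and 2 of 9 regulators were called, all higher. With late αKG over DW, where 4.27% of all genes were called, 2 of the adjoining enzymes were higher and 2 lower, 1 carrier was higher and 1 lower, 0 assembly factors were called, and 1 regulator was lower.

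The regulator was Ppargc1b, a coactivator of mitochondrial genes known for its part in osteoclast mitochondria. It read 5.71 and 6.38 with late αKG, 6.72 and 7.83 with late DW and 5.22 and 5.54 at 0 h. The late arms did not overlap. The gene rose by 1.89 ± 0.43 in late DW (adjusted p = 0.0233) and fell by 1.23 ± 0.14 with late αKG (adjusted p = 0.00366). Esrra, the nuclear receptor that this coactivator serves, rose by 0.59 ± 0.14 in late DW (adjusted p = 0.0337), and its late αKG difference of -0.35 ± 0.14 did not pass.

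Slc25a11, the αKG-malate carrier of the inner membrane, rose by 0.64 ± 0.15 in late DW (adjusted p = 0.026). Slc13a3, a dicarboxylate transporter of the cell surface, read 8.13 and 8.45 with late αKG, 8.18 and 8.62 with late DW and 6.12 and 5.96 at 0 h. It was called higher than 0 h from 3 to 6 h on in both arms, and late αKG over DW was -0.11 ± 0.10. Slc1a5, a glutamine transporter, was lower with late αKG (-0.84 ± 0.19, adjusted p = 0.0405), and Slc25a22, a mitochondrial glutamate carrier, was higher (0.55 ± 0.12, adjusted p = 0.0351).

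Of the enzymes, Me1, the cytosolic malic enzyme that makes NADPH, was higher with late αKG (0.70 ± 0.15, adjusted p = 0.0373), as was Acod1, which makes itaconate from a cycle intermediate (1.12 ± 0.24, adjusted p = 0.0347). Acod1 read 7.33 and 5.56 with late αKG, 5.63 and 5.02 with late DW and 5.52 and 5.69 at 0 h. It was highest at 3 h in both arms (10.41 with αKG and 10.33 with DW), and αKG lay above DW at every matched time. Oxct1, which activates ketone bodies with succinyl-CoA, was lower (-0.54 ± 0.08, adjusted p = 0.00973), and so was Aldh4a1, which makes glutamate from proline breakdown (-0.90 ± 0.14, adjusted p = 0.0111). Over the 6 times Me1 was called higher and Oxct1 lower with αKG.

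**Figure D4:**
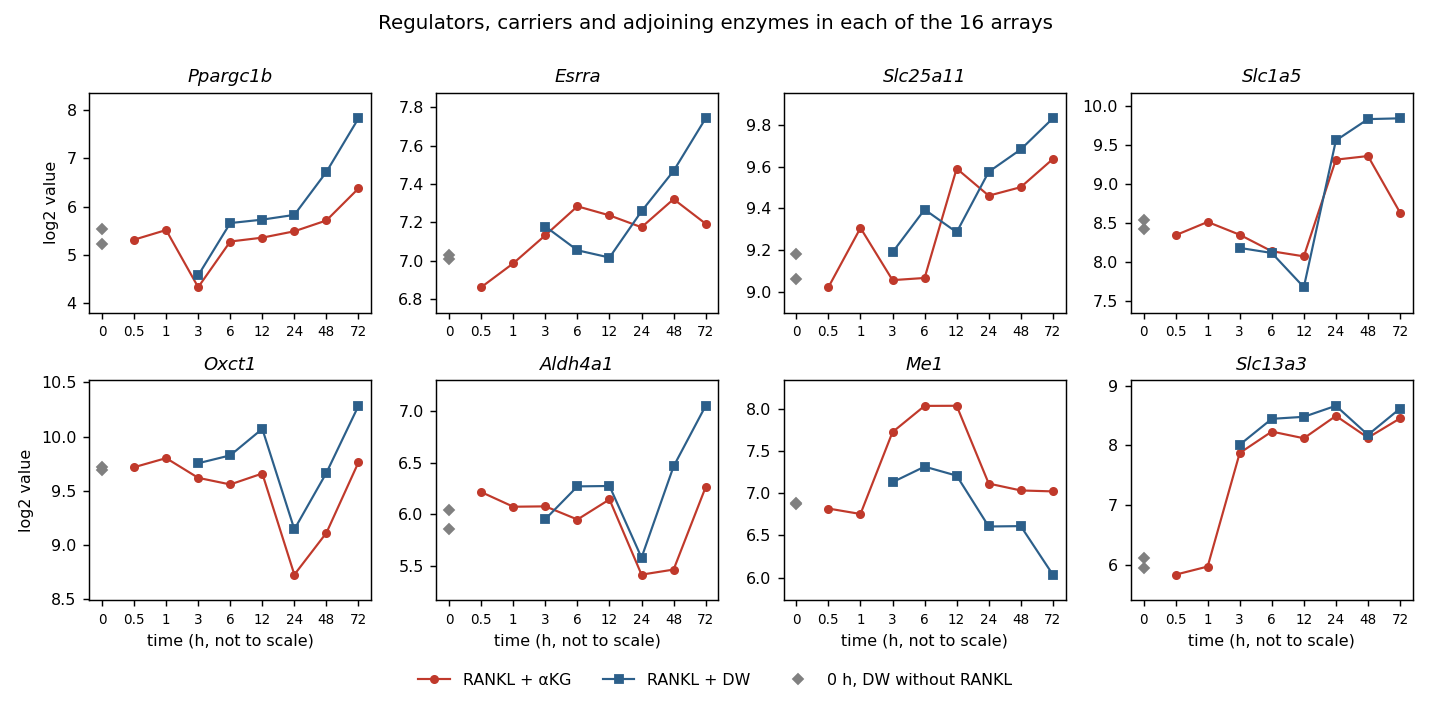
Log2 level of 8 regulators, carriers and adjoining enzymes in each of the 16 arrays against time in h (not to scale), with αKG in red circles, DW in blue squares and 0 h as grey diamonds. Ppargc1b reaches 7.83 with DW and 6.38 with αKG at 72 h, and Me1 lies higher with αKG at each of the 6 matched times.

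Cell markers also differed between these groups, but not always where the members did. In late αKG over 0 h, 0 of 33 members were called (1.43% of all genes). There, 6 of 10 osteoclast markers were higher, and all 9 neutrophil markers, 1 of 8 macrophage markers and 1 of 3 megakaryocyte markers were lower. The median difference of the neutrophil markers from 0 h was -2.36 with late αKG and -2.56 with late DW. The summed linear level of 10 osteoclast markers was 5255 to 11600 with late αKG, 14763 to 28828 with late DW and 724 to 725 at 0 h; 8 of the 10 rose in late DW over 0 h and all 10 were lower with late αKG over DW. That of 9 neutrophil markers was 388 to 619 with late αKG, 362 to 430 with late DW and 2515 to 2531 at 0 h; all 9 were lower in late DW than at 0 h, and 2 were higher with late αKG over DW. That of 3 megakaryocyte markers was 287 to 352 with late αKG, 262 to 371 with late DW and 1310 to 1330 at 0 h; 2 of the 3 were lower in late DW than at 0 h. That of 3 endothelial markers was 154 to 173 with late αKG, 137 to 175 with late DW and 259 to 274 at 0 h; 1 was lower in late DW than at 0 h, and 1 was higher with late αKG over DW. Of the 8 macrophage markers, Fcgr1 (-1.80 ± 0.23, adjusted p = 0.00136, limma) and Itgam (-0.52 ± 0.13, adjusted p = 0.0378) were lower in late DW than at 0 h, and Itgam was higher with late αKG over DW (0.39 ± 0.07, adjusted p = 0.023). Of the stromal, erythroid, B cell and T and NK cell markers tested, 0 were called in any of these comparisons, among 5, 1, 3 and 2 genes. In the 4 late arrays the mean log2 level was 4.29 to 4.45 for B cell markers and 4.31 to 4.41 for T and NK cell markers, next to the limit for dim genes of 4.34. The part of these cell types in the members' differences was not tested.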

How the data were processed

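The deposited log2 values were used unchanged. They form 1 table for 16 one-colour arrays of total RNA labelled with biotin, per the labels' protocols. The log base was inferred from their range, and the array medians lay close to each other. How the authors summarised and normalized them, and on which build, is not given in the sources used here. No limit for background or saturation could be set, and precision is limited by how many arrays there are.

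The platform annotation gives 1 gene symbol to 23521 of the 33793 features, several to 1814 and none to the 8458 that are unnamed here. A RefSeq gene table (GRCm38.p6) changed 0 symbols. Genes in the lowest 30% by mean (up to 4.34) were left out. The 15526 others were fitted in R 4.3.3 with limma 3.58.1 (eBayes with the trend option), with Benjamini-Hochberg adjustment over all of them and a threshold of 0.05. RANKL groups were compared with 0 h in a fit of 8 groups (8 residual degrees of freedom). αKG was compared with DW on the 12 arrays at the 6 times of both arms, with time as a block, as 1 effect (5 residual degrees of freedom) or 1 per phase (3). Errors after ± are standard errors on the log2 scale. The pairing by time comes from the labels: deviations from the arm means correlated at r = 0.50 to 0.75 between arrays of the same time, each above the highest r with another time (0.20 to 0.49). The fits were also run on simulated data, with the same spread for every gene, no change over time and larger changes than most members showed. That run checked the code and does not show how often changes of the members' size would be found.

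The members and all lists were chosen with earlier results of these data known. The rule for named genes was: values per array for members called in late DW over 0 h, in late αKG over DW or over the 6 times, and for the 2 highest and 2 lowest differences in each; other members by differences and counts; genes outside the members from 4 lists, where called. The comparison at 12 h and the motif search were added after the data were seen. Alternatives were other filters, other scalings, other forms of eBayes, the mean of a gene's features, fits of only the groups compared, fits with no block, and leaving out arrays or time pairs.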

Additional observations from a re-analysis of the deposited data

How the results depend on the processing

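Counts are of members called. Of 355 values for single members called in the late comparisons or at 12 h, 247 kept their call under other settings, 108 lost it and 0 reversed. Most of these settings could not turn a direction. Other filters, other forms of moderation, and fits of only the groups compared or with no block leave a difference unchanged. So does leaving out an earlier time pair for late αKG over DW. In late DW over 0 h, leaving out an array could not turn a called member either, because its late arrays both lay above 0 h. Late DW over 0 h gave 10, 10 or 11 under the other filters, scalings and forms of moderation, 0 in a fit of only the 2 groups, and 2 to 17 when an array was left out (4 without DW at 72 h). Late αKG over DW gave 11 to 15 under most settings, 6 with moderation without a trend, 0 with no replicate block (7 genes in all were then called), and 2 to 22 when a time pair was left out. The change of the αKG effect from 3 to 6 h to late gave 1, Pdha1, with robust moderation and 0 to 15 when a pair was left out. Without a pair, αKG over the 6 times gave 0 to 1 and αKG at 12 to 24 h gave 0 to 1, the 1 being Idh1 in each. DW at 3 to 6 h gave 1 in a fit of only the 2 groups, and DW at 12 to 24 h gave 1 without the lowest 50% of genes, Pdp1 in each. The comparison at 12 h gave 1 to 3 when an array was left out. The replicate block, here the time that arrays share, changed no other count of members. In late DW over 0 h, 519 genes were called higher and 512 lower, against 581 and 478 after quantile normalization and 439 and 575 after centring on medians. The causes of these differences were not tested. With 2 arrays a group, differences of the size of the standard errors given are not detectable.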
